A study of Homo sapiens with 18 samples.

Results

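The genes described here are 10 genes of lipid peroxidation and of the defences against ferroptosis that act beside GPX4. They were named by symbol, with earlier results of these data known, as ACSL4, ACSL3, LPCAT3, AIFM2, DHODH, GCH1, POR, FADS1, FADS2 and SCD, and all 10 were found among the 43735 genes of the count table and passed the filter on low counts, which left 14281 genes to test. Ferroptosis is an iron-dependent death in which phospholipids that carry polyunsaturated fatty acids are oxidized beyond repair. Enzymes that make, activate and insert such fatty acids supply the substrate, monounsaturated fatty acids compete with them for the same places in the membrane, and GPX4 reduces the peroxides that form. Cells also hold back the reaction without GPX4, through lipid antioxidants such as reduced coenzyme Q and tetrahydrobiopterin.

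RNA was sequenced from a pair of human multiple myeloma lines, MM1S, which responds to glucocorticoids, and MM1R, which resists them, both grown in RPMI-1640 medium with fetal bovine serum. Cells of each line were left untreated, received 5 µM RSL3 (an inhibitor of GPX4) for 3 h, or received 2 µM Fer-1 (ferrostatin-1, a lipid radical trap) for 2 h and then RSL3 for 3 h, with 3 libraries in each of the 6 groups. The 3 libraries of a group are cell passages 4, 6 and 7 of MM1R and 16, 22 and 23 of MM1S, so each passage holds every treatment and the lines share no passage. Each line is a single cell line, no group received Fer-1 alone, and the labels do not say whether untreated cells received the solvent. The p-values measure the spread between passages of 1 line, and in bulk RNA a change in the mix of living and dying cells cannot be told apart from a change of RNA in each cell.

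Libraries held 17635438 to 19368343 counts, with a median of 18564719. Values are CPM (counts scaled to library size by TMM) with SD over n = 3 libraries, and a gene is called where its FDR was under 0.05 in edgeR's quasi-likelihood test over all 14281 genes. All 10 plasma cell markers were found, with a summed level of 9729 to 19079 CPM, against at most 0.601 CPM for the 3 myeloid and 0.506 CPM for the 3 B cell markers, 11.8 CPM for the 3 T cell markers (CD3E), 1.84 CPM for the 2 epithelial and 29.4 CPM for the 3 stromal ones (PECAM1). The library of MM1R cells with Fer-1 and RSL3 at passage 6 stood apart. Over the 7 genes that were at least 8-fold higher in MM1S than in MM1R cells in the libraries without Fer-1, its median was 45.4% of the way from the MM1R to the MM1S level, whereas the other MM1R libraries lay between -0.614% and 2.18%. The glucocorticoid receptor NR3C1 was at 50.2 CPM there, against 16.9 and 15.3 CPM at passages 4 and 7. A further library, of MM1S cells with RSL3 at passage 16, had the lowest TMM factor (0.864, against at least 0.926 elsewhere) and NR3C1 at 392 CPM, against 102 and 97.6 CPM at passages 22 and 23. NR3C1 was also higher at passage 16 in untreated MM1S cells (152 CPM, against 96.6 and 89.9) and with Fer-1 and RSL3 (163 CPM, against 93.1 and 93.4). The main calls of the 10 genes are given below with and without the MM1R Fer-1 library of passage 6 and the MM1S RSL3 library of passage 16.

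Promoters are shown for the 3 genes whose level was called in RSL3 against untreated cells or between the lines. Each is a RefSeq window of 300 bases (assembly GRCh38.p14) on the gene's own strand around its start. They were searched on both strands for TGACNNNGC, the core of the antioxidant response element, and TCACNCCAC, a sterol regulatory element. A single window per gene was used, the first listed where a gene has several, so other starts were not searched. AIFM2 lies on the minus strand at chr10:70132776-70133075 in this assembly, ACSL4 on the minus strand at chrX:109733208-109733507 and FADS1 on the minus strand at chr11:61816954-61817253. Capitals mark the match to TGACNNNGC, which reads on the opposite strand.
AIFM2: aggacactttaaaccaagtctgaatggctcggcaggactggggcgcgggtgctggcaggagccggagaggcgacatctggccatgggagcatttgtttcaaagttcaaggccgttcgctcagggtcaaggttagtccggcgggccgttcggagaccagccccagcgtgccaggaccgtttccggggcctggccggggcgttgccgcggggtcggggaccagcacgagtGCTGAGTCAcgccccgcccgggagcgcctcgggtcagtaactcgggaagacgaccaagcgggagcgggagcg
ACSL4: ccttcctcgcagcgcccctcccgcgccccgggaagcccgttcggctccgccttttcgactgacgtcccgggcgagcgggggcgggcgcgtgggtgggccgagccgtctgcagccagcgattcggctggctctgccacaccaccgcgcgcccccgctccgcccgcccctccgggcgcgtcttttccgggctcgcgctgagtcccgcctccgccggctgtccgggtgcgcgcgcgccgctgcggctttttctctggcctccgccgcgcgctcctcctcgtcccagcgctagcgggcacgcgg
FADS1: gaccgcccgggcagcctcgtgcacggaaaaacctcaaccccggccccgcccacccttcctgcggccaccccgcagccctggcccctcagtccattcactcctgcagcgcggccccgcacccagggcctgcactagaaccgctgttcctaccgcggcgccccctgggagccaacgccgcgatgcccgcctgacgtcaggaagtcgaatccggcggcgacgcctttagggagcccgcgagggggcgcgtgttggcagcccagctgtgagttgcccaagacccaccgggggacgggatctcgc
The match in AIFM2 begins at base -22 from the start of the gene. It was the only match to either motif in the windows searched, a single one for each of the 8 genes of the 10 that had any. These are ACSL4, ACSL3, LPCAT3, AIFM2, DHODH, FADS1, FADS2 and SCD. GCH1 and POR had no window. Of 27305 promoter windows, a single one per gene, 13.6% hold TGACNNNGC and 1.15% hold TCACNCCAC. A match to TGACNNNGC is thus common and does not show that a factor binds.

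Per length of exon, taken over all annotated exons of a gene merged, SCD was far above the other 9 genes. In untreated MM1R cells it stood at 239 ± 21.9 CPM per kb, followed by POR at 12.8 ± 0.856, FADS1 at 7.90 ± 1.45, AIFM2 at 6.92 ± 1.29, ACSL4 at 6.92 ± 0.762, ACSL3 at 6.35 ± 0.232 and GCH1 at 5.38 ± 0.305. DHODH at 3.77 ± 1.02, LPCAT3 at 3.04 ± 0.0664 and FADS2 at 1.15 ± 0.199 CPM per kb came last. From FADS1 to ACSL3, neighbours in this order differed by less than the larger of their SDs, as did DHODH and LPCAT3. The order below SCD also depends on the exon length used. By CPM alone, ACSL3 at 91.7 and FADS1 at 80.8 lay above POR at 79.5 in these cells. In untreated MM1S cells SCD was again first, at 320 ± 80.1 CPM per kb, and FADS1 was second, at 14.4 ± 1.32, ahead of POR at 12.7 ± 0.546. FADS2 was again last, at 1.11 ± 0.477 CPM per kb.

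**Figure D1:**
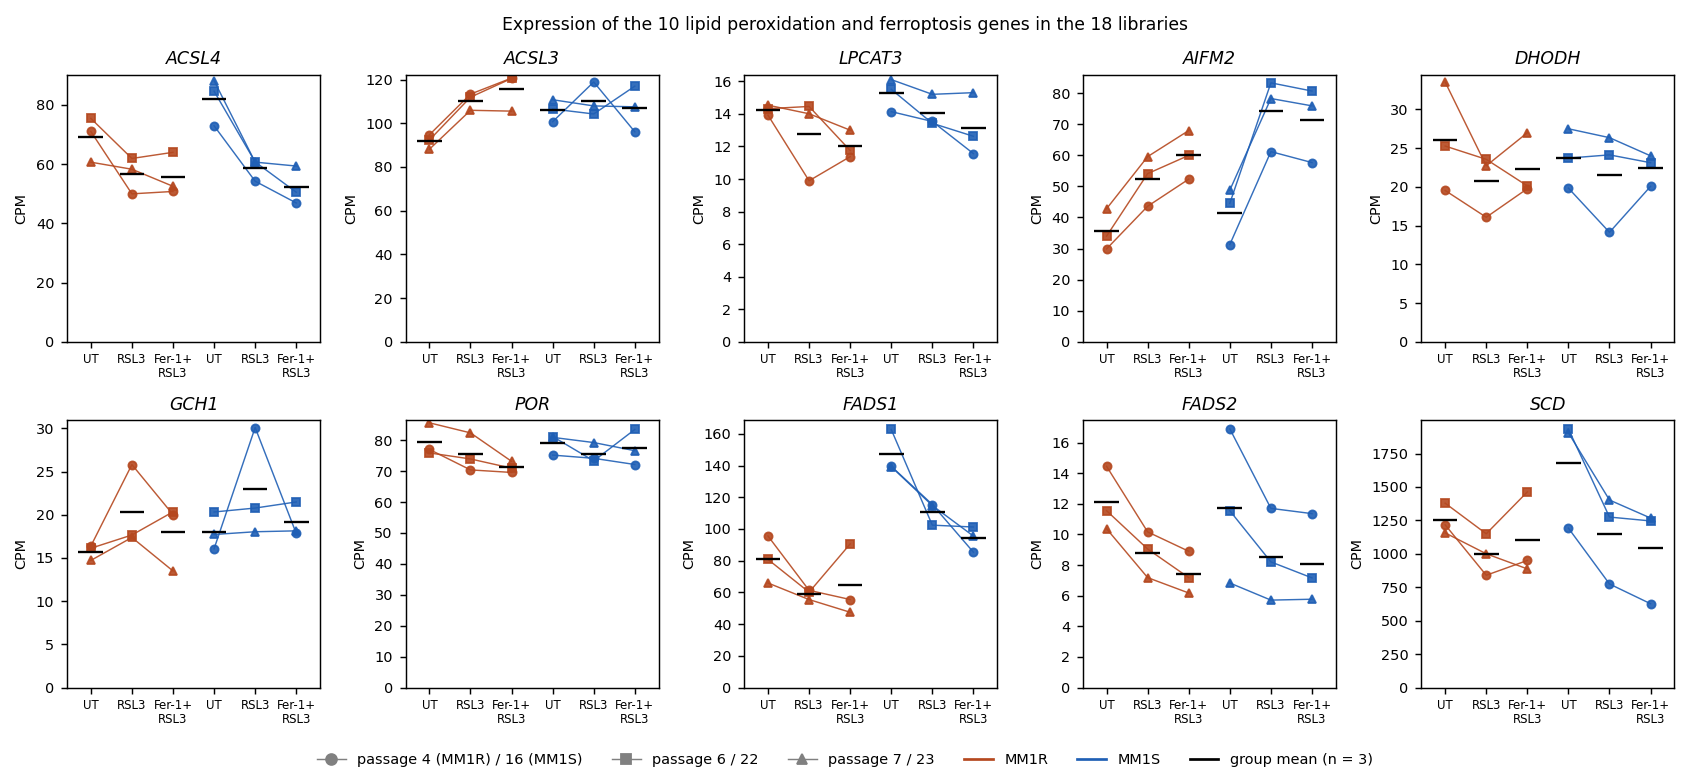
Expression of the 10 genes in all 18 libraries, in CPM, with one panel per gene and its own axis. Each symbol is a library, its shape marks the passage, and the bar is the group mean. AIFM2 lies higher in all RSL3 libraries than in untreated libraries of the same line, and FADS1 lies lower in MM1R than in MM1S cells within the untreated and within the RSL3 groups.

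RSL3 was compared with no treatment to ask how inhibition of GPX4 moves these genes. AIFM2 was the gene that rose most clearly, 1.47-fold in MM1R and 1.79-fold in MM1S cells, while ACSL4 and FADS1 fell. Averaged over both lines, 3 of the 10 genes were called, 1 higher and 2 lower, against 15.5% of all genes. In MM1S cells 2 genes were called (AIFM2 and ACSL4), where 3.67% of all genes were. In MM1R cells none was called, by edgeR or by DESeq2, where edgeR called 3.36% of all genes, with 4 of the 10 at an unadjusted p under 0.05, against 18.5% of all genes. With the passage as a block, which compares libraries within a passage, 4 genes were called in MM1R (ACSL4, ACSL3, AIFM2 and FADS2), 4 in MM1S (ACSL4, AIFM2, FADS2 and SCD) and 6 in the average of the lines (those 5 and FADS1), where 13.1%, 13.3% and 30.4% of all genes were called. Without the MM1S RSL3 library of passage 16, the averaged calls were again AIFM2 (log2 fold change 0.76, FDR 0.00131), ACSL4 (-0.35, FDR 0.0217) and FADS1 (-0.44, FDR 0.0456), beside 11.9% of all genes. In MM1S cells AIFM2 kept its call there (0.96, FDR 0.0253) and ACSL4 lost it (-0.43, FDR 0.189), and SCD and FADS2 stood at -0.32 and -0.75 with no call. That fit kept the untreated library of passage 16, so its fold changes hold differences between passages as well as those with RSL3. Within passages 22 and 23 the log2 ratio was 0.90 and 0.68 for AIFM2 and -0.48 and -0.54 for ACSL4. It was -0.60 and -0.44 for SCD and -0.49 and -0.26 for FADS2. With both that omission and the passage block, 7 genes were called in MM1R (ACSL4, ACSL3, AIFM2, GCH1, FADS1, FADS2 and SCD), 3 in MM1S (ACSL4, AIFM2 and SCD) and 5 on average (ACSL4, AIFM2, FADS1, FADS2 and SCD), where 21.7%, 4.88% and 25.7% of all genes were called.

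AIFM2 (FSP1, chr10:71857979-71892690 of hg19) encodes the oxidoreductase that regenerates reduced coenzyme Q at the membrane. In MM1R cells at passages 4, 6 and 7 it stood at 29.9, 34.0 and 42.8 CPM untreated and at 43.6, 54.1 and 59.6 CPM with RSL3. In MM1S cells at passages 16, 22 and 23 it stood at 31.3, 44.6 and 48.8 CPM untreated and at 61.2, 83.3 and 78.3 CPM with RSL3. The 2 groups did not overlap in either line, and the first passage was the lowest in every one of the 6 groups. The log2 fold change was 0.84 (SE 0.19, FDR 0.0230) in MM1S and 0.56 (SE 0.19, FDR 0.119) in MM1R cells, and with the passage block both were called (FDR 0.000112 and 0.00124). Averaged over the lines it was 0.70 (SE 0.13, FDR 0.00256), and it was called in each of 18 fits that left out 1 library. The call in MM1S cells alone was lost without the passage 16 untreated library (FDR 0.131), the passage 22 untreated library (FDR 0.0594) or the passage 22 RSL3 library (FDR 0.0595). Within passages the log2 ratio of RSL3 to untreated was 0.48 to 0.67 in MM1R and 0.68 to 0.97 in MM1S cells. AIFM2 shares 986 of 5135 exon bases with MACROH2A2 on the opposite strand, which as H2AFY2 in the table averaged 0.0899 to 0.265 CPM in the 6 groups.

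ACSL4 (chrX:108867473-108976632), the ligase that activates arachidonic and adrenic acid for insertion into phospholipids, was lower with RSL3. In MM1S cells it stood at 72.9, 84.6 and 88.2 CPM untreated and at 54.2, 60.7 and 60.7 CPM with RSL3. In MM1R cells it stood at 71.0, 75.4 and 60.6 CPM untreated and at 50.0, 61.9 and 58.3 CPM with RSL3. The groups were apart in MM1S and overlapped in MM1R cells, where the passage 6 RSL3 library lay above the passage 7 untreated library. The log2 fold change was -0.48 (SE 0.13, FDR 0.0460) in MM1S cells, -0.28 (SE 0.13, FDR 0.247, with the block 0.0475) in MM1R cells and -0.38 (SE 0.09, FDR 0.00988) averaged over the lines. The averaged call held in each of 18 fits without 1 library, with an FDR of at most 0.0325. The call in MM1S cells alone held in 5 of them, those without MM1R untreated passage 7, MM1R RSL3 passage 4, MM1R Fer-1 and RSL3 passage 6 or MM1S Fer-1 and RSL3 passage 16 or 23, and otherwise its FDR rose to as much as 0.189.

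ACSL3 (chr2:223725660-223809357), the ligase that activates monounsaturated fatty acids such as oleate, went the other way in MM1R cells. Untreated MM1R libraries held 94.7, 92.3 and 88.1 CPM and RSL3 libraries 113, 112 and 106 CPM, with no overlap. In MM1S cells the values were 101, 107 and 111 CPM untreated and 119, 104 and 108 CPM with RSL3, and the groups overlapped. The log2 fold change was 0.27 (SE 0.09, FDR 0.135) in MM1R and 0.06 (SE 0.09, FDR 0.795) in MM1S cells. With the passage block MM1R cells (FDR 0.0495) and the average of the lines (FDR 0.0492) came just under the threshold. The difference between the lines was 0.21 (SE 0.13) and was not called. ACSL3 has a named pseudogene and shares 403 exon bases with an antisense RNA, so its counts are uncertain to that extent.

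LPCAT3 (chr12:7085347-7125781), which inserts polyunsaturated acyl chains into lysophospholipids, was at 9.89 to 16.1 CPM over all libraries. Its log2 fold change with RSL3 was -0.16 (95% confidence interval -0.47 to 0.15) in MM1R and -0.12 (-0.43 to 0.19) in MM1S cells, and it was not called. Of its 4692 exon bases, 3096 are shared with EMG1 on the opposite strand, which averaged 43.1 to 52.6 CPM, so LPCAT3 reads cannot be told apart from EMG1 reads if strand was not used. POR (chr7:75528518-75616173), the oxidoreductase that passes electrons to cytochrome P450 enzymes and can start lipid peroxidation, was the steadiest gene. It ranged from 69.6 to 85.6 CPM over all 18 libraries, and its averaged log2 fold change was -0.07 (95% confidence interval -0.21 to 0.07).

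FADS1, FADS2 and SCD, the desaturases, were lower with RSL3 in all 6 passages. FADS1 (chr11:61567099-61596790), the delta-5 desaturase of the path to arachidonic acid, stood at 95.6, 80.8 and 65.9 CPM in untreated and 61.3, 60.1 and 55.5 CPM in RSL3-treated MM1R cells. In MM1S cells it stood at 139.5, 163 and 139 CPM untreated and at 115, 102 and 115 CPM with RSL3. The groups were apart in both lines. The averaged log2 fold change was -0.43 (SE 0.13, FDR 0.0341), with -0.45 (FDR 0.195) in MM1R and -0.41 (FDR 0.231) in MM1S cells. The averaged call held in 11 of 18 fits without 1 library and was lost, at an FDR of up to 0.0856, without MM1R untreated passage 4 or 6, any 1 of the 3 MM1R RSL3 libraries, or MM1S passage 22 untreated or with RSL3.

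FADS2 (chr11:61560452-61634826), the delta-6 desaturase that acts before FADS1, was the gene with the lowest level. In MM1R cells it stood at 14.4, 11.5 and 10.4 CPM untreated and at 10.2, 9.04 and 7.18 CPM with RSL3. In MM1S cells it stood at 16.9, 11.5 and 6.83 CPM untreated and at 11.7, 8.20 and 5.71 CPM with RSL3. The groups were apart in MM1R cells. The first passage was the highest in all 6 groups, and the groups of MM1S cells overlapped, although RSL3 was lower within each passage. The averaged log2 fold change was -0.46 (SE 0.23, FDR 0.178), and with the passage block FADS2 was called in MM1R (FDR 0.0191), in MM1S (FDR 0.0267) and on average (FDR 0.00138). FADS1 and FADS2 share 490 exon bases on opposite strands, and FADS2 shares 49 on the same strand with FEN1, which averaged 169 to 272 CPM. FEN1 had an averaged log2 fold change of -0.44 with RSL3 (FDR 0.0523), close to that of FADS2, and was not called. How much of the FADS2 count came from reads of FEN1 or FADS1 was not tested.

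SCD (chr10:102106990-102124583), the desaturase that makes oleate and palmitoleate, stood at 1217, 1379 and 1157 CPM in untreated and 839.9, 1150.1 and 1000.4 CPM in RSL3-treated MM1R cells, which did not overlap. In MM1S cells it stood at 1192, 1933 and 1905 CPM untreated and at 775, 1275 and 1403 CPM with RSL3, which overlapped, with passage 16 lowest in both groups. The log2 fold change was -0.33 (SE 0.28, FDR 0.589) in MM1R, -0.54 (SE 0.28, FDR 0.298) in MM1S cells and -0.44 (SE 0.20, FDR 0.142) on average. With the passage block SCD was called in MM1S cells (FDR 0.00712) and on average (FDR 0.00102). Within passages its log2 ratio was -0.54 to -0.21 in MM1R and -0.62 to -0.44 in MM1S cells.

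GCH1 and DHODH act in other lipid defences, and neither was called in the main fit or with the passage block. With the block and without the MM1S RSL3 library of passage 16, GCH1 was called in MM1R cells. With the block alone its FDR was 0.209 in MM1R, 0.213 in MM1S cells and 0.0517 on average. GCH1 (chr14:55308726-55369544), the first enzyme of tetrahydrobiopterin synthesis, stood at 16.4, 16.1 and 14.7 CPM in untreated and 25.8, 17.7 and 17.4 CPM in RSL3-treated MM1R cells. In MM1S cells it stood at 16.1, 20.3 and 17.7 CPM untreated and at 30.1, 20.8 and 18.03 CPM with RSL3. RSL3 was higher within all 6 passages, and the groups were apart in MM1R cells, but most of the difference lay at passages 4 and 16. The log2 fold change was 0.37 (SE 0.20, FDR 0.361) in MM1R and 0.35 (SE 0.20, FDR 0.373) in MM1S cells. It became 0.16 in MM1R cells without the passage 4 RSL3 library and 0.11 in MM1S cells without the passage 16 one. These fits kept the untreated library of the same passage. Within passages the log2 ratio was 0.13 and 0.24 at passages 6 and 7, and 0.03 at both passages 22 and 23. DHODH (chr16:72042487-72061563), which reduces coenzyme Q in the inner mitochondrial membrane, ranged from 14.1 to 33.5 CPM, was lowest at the first passage in every group, and had an averaged log2 fold change of -0.23 (95% confidence interval -0.58 to 0.12).

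**Figure D2:**
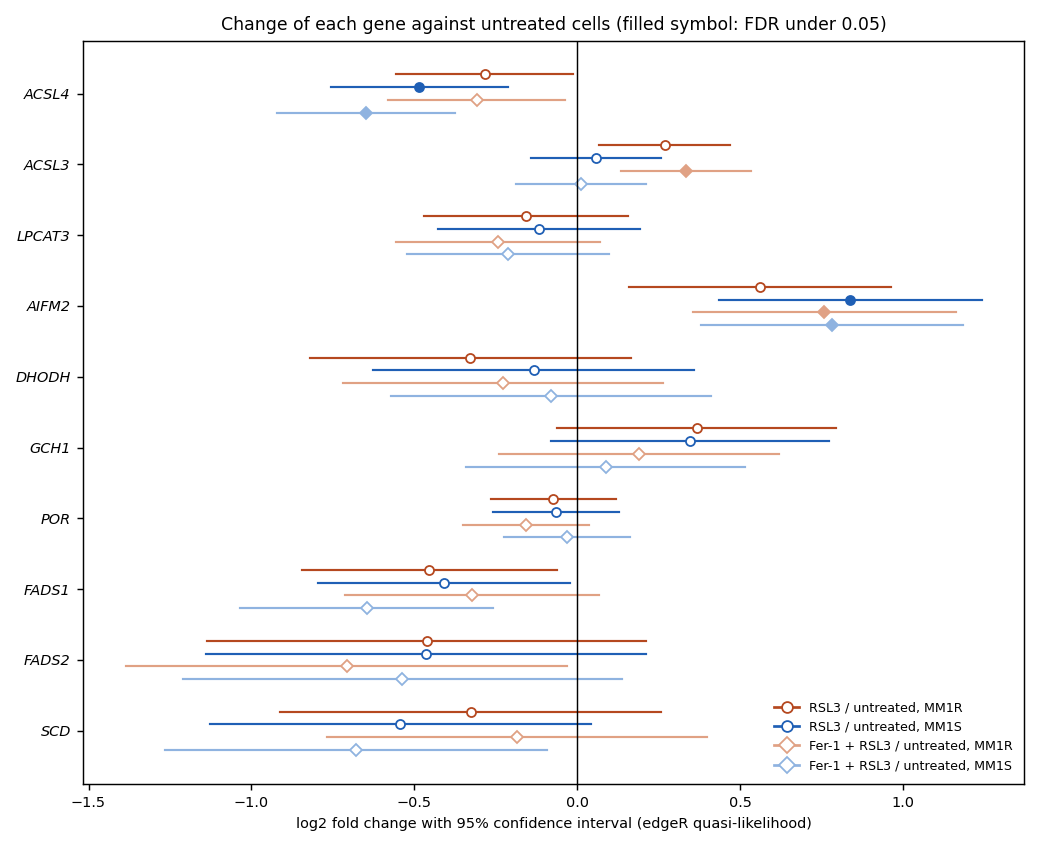
Log2 fold change of each gene against untreated cells of the same line, for RSL3 and for Fer-1 followed by RSL3, with 95% confidence intervals from edgeR's quasi-likelihood test. Filled symbols have an FDR under 0.05. The intervals of AIFM2 lie above 0 in all 4 contrasts, and those of ACSL4 lie below 0.

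The direction within passages was the same in all 6 for 7 genes. The share of all genes with the same direction in all 6 passages was not computed, so the 7 cannot be set against it. AIFM2 and GCH1 were higher with RSL3 in 6 of 6 passages, and ACSL4, POR, FADS1, FADS2 and SCD were lower in 6 of 6. LPCAT3 and DHODH were lower in 5 of 6, and ACSL3 was higher in 4, which included all 3 of MM1R. Groups were apart for 6 of the 10 genes in MM1R and 3 in MM1S cells, against 25.7% and 24.9% of all genes tested. The median log2 fold change of the 10 genes was -0.22 in MM1R, -0.13 in MM1S cells and -0.18 averaged over the lines, where that of all genes was 0.00.

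Fer-1 was given before RSL3 to ask whether a block of lipid peroxidation returns these genes to their untreated level. None of the 10 genes was called between RSL3 with Fer-1 and RSL3 alone. The count was 0 in MM1R cells (0% of all genes), 0 in MM1S cells (0%) and 0 averaged over the lines (0.119%, or 17 genes). It was also 0 with DESeq2 and with the passage block, where 0.175%, 0.056% and 2.37% of all genes were called. Without the block none of the 10 had an unadjusted p under 0.05, against 881, 821 and 1826 of all genes in the 3 comparisons. With the block edgeR's quasi-likelihood test gave AIFM2 in MM1R cells an unadjusted p of 0.0220, at a log2 difference of 0.20 (95% confidence interval 0.03 to 0.37, FDR 0.295). The averaged log2 difference was 0.07 (95% confidence interval -0.21 to 0.35) for AIFM2, -0.09 (-0.29 to 0.10) for ACSL4 and -0.05 (-0.33 to 0.22) for FADS1. Without the MM1R library at passage 6 these became 0.07 (-0.24 to 0.38), -0.15 (-0.35 to 0.05) and -0.22 (-0.42 to -0.01), and none was called (FDR 0.922, 0.618 and 0.469 by edgeR's quasi-likelihood test). These intervals bound the difference that could have been missed and do not show that the groups were alike.

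AIFM2 stood at 52.3, 60.0 and 68.0 CPM with Fer-1 and RSL3 in MM1R cells, and in MM1S cells at 57.7, 80.7 and 75.9 CPM. It was thus above every untreated library of its line in all 6. ACSL4 stood at 50.8, 64.0 and 52.5 CPM in MM1R cells. In MM1S cells it stood at 46.9, 50.5 and 59.3 CPM, where it was below every untreated library. FADS1 stood at 85.4, 101 and 95.5 CPM in MM1S cells, below every untreated and every RSL3 library of the line. Its log2 difference from RSL3 alone there was -0.24 (FDR 0.92). Groups were apart in that comparison for 1 of the 10 genes, FADS1, against 8.79% of all genes tested. In MM1R cells FADS1 stood at 55.5, 90.6 and 47.5 CPM, and 90.6 is the library that stood apart. Without it, the log2 difference between Fer-1 with RSL3 and RSL3 alone in MM1R cells went from 0.13 to -0.20 for FADS1 and from 0.14 to -0.12 for SCD, and neither was called. SCD in that library was at 1463 CPM, against 951 and 887 CPM at passages 4 and 7. In MM1S cells SCD stood at 627, 1246 and 1268 CPM, of which the passage 16 value was below every untreated library of the line. ACSL3 stood at 121, 121 and 106 CPM in MM1R cells, above every untreated library, and at 96.1, 117 and 108 CPM in MM1S cells, which overlapped the untreated values. FADS2 stood at 8.90, 7.18 and 6.17 CPM in MM1R cells, below every untreated library, and at 11.4, 7.16 and 5.77 CPM in MM1S cells. LPCAT3 and POR were also below every untreated library in MM1R cells. Between Fer-1 with RSL3 and untreated cells, groups were apart for 5 of the 10 genes in MM1R and 3 in MM1S cells. Of all genes tested, 30.6% and 28.3% were apart.

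**Figure D3:**
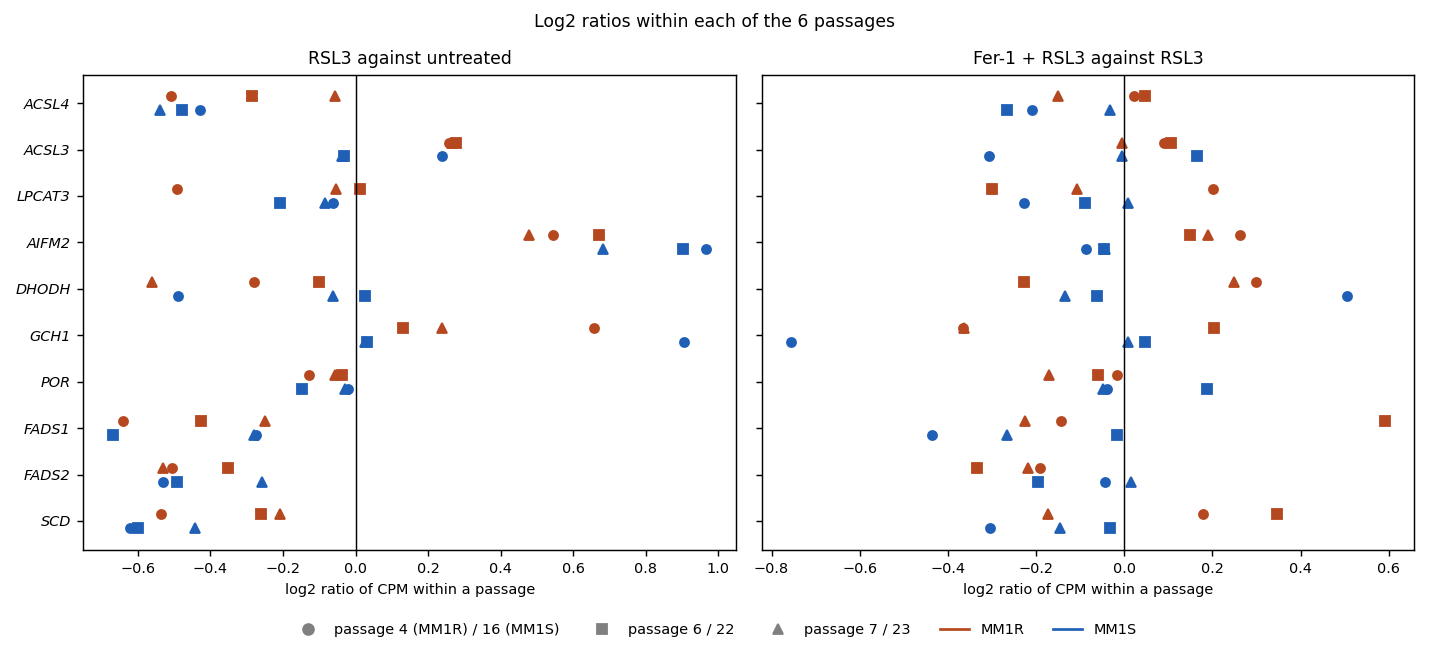
Log2 ratios of CPM within each of the 6 passages, for RSL3 against untreated cells on the left and for Fer-1 with RSL3 against RSL3 on the right. Colour marks the line and shape the passage. On the left, AIFM2 and GCH1 lie above 0 and ACSL4, POR, FADS1, FADS2 and SCD below 0 in all passages, and on the right FADS1 at passage 6 of MM1R lies apart at 0.59.

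Against untreated cells, the cells given Fer-1 and RSL3 were also higher in AIFM2 and, in MM1S cells, lower in ACSL4. These comparisons share their untreated libraries, so they are no independent evidence. In MM1R cells 2 genes were called (9.22% of all genes), AIFM2 at a log2 fold change of 0.76 (FDR 0.0216) and ACSL3 at 0.33 (FDR 0.0369). Without the passage 6 library that stood apart, both lost their call, AIFM2 at 0.76 (FDR 0.0608) and ACSL3 at 0.30 (FDR 0.129), whereas FADS1 went from -0.32 (FDR 0.294) to -0.65 (FDR 0.0203) and was called. ACSL3 was called in 8 of 18 fits without 1 library and lost its call, at an FDR of up to 0.129, without any 1 untreated library, RSL3 passage 6 or 7 or Fer-1 passage 4 or 6 of MM1R, or untreated passage 22 or 23 or Fer-1 passage 23 of MM1S. AIFM2 was called in 14, where its call was also lost without untreated passage 4 or 6 or Fer-1 passage 7 (FDR up to 0.0846). In MM1S cells 2 genes were called (4.61% of all genes), AIFM2 at 0.78 (FDR 0.0262) and ACSL4 at -0.65 (FDR 0.00822), and FADS1 at -0.65 missed the threshold (FDR 0.0552). FADS1 passed it, beside the same 2 genes, without the MM1R Fer-1 library of passage 6 or without the MM1S RSL3 library of passage 16. In those fits 4.29% and 8.49% of all genes were called. AIFM2 there was called in 14 of 18 such fits and lost its call without untreated passage 16 or 22 or Fer-1 passage 22 or 23 (FDR up to 0.131), and ACSL4 lost its call without Fer-1 passage 16 (FDR 0.0522). With the passage block 4 genes were called in MM1R cells (AIFM2, ACSL3, ACSL4 and FADS2) and 5 in MM1S cells (AIFM2, ACSL4, FADS1, FADS2 and SCD), at 22.2% and 14.7% of all genes. With the block and without the library that stood apart, 4 were called in MM1R cells (ACSL4, AIFM2, FADS1 and FADS2, beside 12.3% of all genes), where ACSL3 was not (FDR 0.0641), and the same 5 in MM1S cells (14.2%).

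The lines were compared to ask whether the glucocorticoid-resistant cells start from another level. As the lines share no passage, a difference between lines cannot be told apart from a difference between passages. FADS1 was the only gene of the 10 that was called. In untreated cells it was lower in MM1R than in MM1S by a log2 difference of -0.87 (SE 0.18, FDR 0.00720), or 80.8 ± 14.8 against 147 ± 13.5 CPM, and the groups were apart. Under RSL3 it was lower by -0.91 (SE 0.19, FDR 0.00562), or 59.0 ± 3.08 against 111 ± 7.34 CPM. Both calls held in all 18 fits without 1 library. FADS1 was thus 1 of 10 genes called in each comparison, against 10.5% of all genes in untreated and 9.17% in RSL3-treated cells. Its partner FADS2 differed by 0.05 (95% confidence interval -0.62 to 0.71) in untreated cells, a wide interval at this level. ACSL3 in untreated cells was lower in MM1R by -0.21 (SE 0.09, FDR 0.181) with no overlap of the groups, and was not called. Under RSL3 its difference was 0.0008 (SE 0.09). AIFM2 under RSL3 was lower in MM1R cells by -0.50 (SE 0.19, FDR 0.111) with no overlap of the groups, and was not called. Groups were apart for 2 of the 10 genes in untreated and 2 in RSL3-treated cells, against 32.4% and 26.0% of all genes tested.

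The effect of RSL3 on these genes could not be told apart between the lines. For the difference between the lines in the RSL3 effect, edgeR's quasi-likelihood test called 0 of the 10 genes and 0% of all genes, and the other settings tried also called 0 of the 10. Without the block there were 0 of the 10 and 222 of all genes at an unadjusted p under 0.05. The difference was -0.28 (SE 0.27) for AIFM2 and 0.20 (SE 0.18) for ACSL4 on the log2 scale. With the passage block AIFM2 was at -0.28 (SE 0.11, 95% confidence interval -0.52 to -0.05), with an unadjusted p of 0.0223 in edgeR's quasi-likelihood test and an FDR of 0.906. Without the MM1S RSL3 library of passage 16 it was at -0.40 without the block and -0.25 with it, and was not called. GPX4, the target of RSL3, had no call in either line with RSL3, at -0.11 (FDR 0.709) in MM1R and 0.08 (FDR 0.781) in MM1S cells, and was higher in untreated MM1R than MM1S cells, at 292 ± 37.02 against 214 ± 18.2 CPM (log2 difference 0.45, FDR 0.0361).

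The wider pathways were covered by 5 lists of 64 genes, of which 53 passed the filter. Averaged over the lines, 5 of these 53 genes were called higher and 4 lower with RSL3, which is 17.0% of them against 15.5% of all genes. With the passage block 10 were called higher and 15 lower, or 47.2% against 30.4% of all genes. The coenzyme Q and vitamin K list (16 of 16 tested, median log2 fold change 0.00) held 2 genes that rose, the quinone reductase NQO1 and COQ7, a hydroxylase of coenzyme Q synthesis. NQO1 averaged 9.40 ± 4.01 CPM in untreated and 16.9 ± 4.17 CPM in RSL3-treated MM1R cells, and 13.8 ± 1.78 and 32.3 ± 3.49 CPM in MM1S cells, a log2 fold change of 1.04 (SE 0.17, FDR 0.000975). COQ7 averaged 26.5 ± 1.74 and 37.3 ± 0.649 CPM in MM1R and 24.8 ± 0.309 and 33.5 ± 0.935 CPM in MM1S cells, a log2 fold change of 0.46 (SE 0.07, FDR 0.000508) that was called in each line as well, in MM1S cells not without the RSL3 library of passage 16 (FDR 0.0587). VKORC1L1, which reduces vitamin K, fell at -0.36 (FDR 0.0287) and lost its call in 6 of 18 fits without 1 library, with an FDR of up to 0.0796 (without MM1R RSL3 passage 4).

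In the list of saturated and monounsaturated fatty acid supply (11 of 12 tested, median -0.23), FASN, the fatty acid synthase, and SCAP, the escort of the SREBP factors, fell, and 6 genes were called lower with the passage block (30.4% of all genes were called in either direction). FASN averaged 594 ± 49.0 and 413 ± 124 CPM in MM1R and 583 ± 117 and 333 ± 92.6 CPM in MM1S cells, a log2 fold change of -0.67 (SE 0.20, FDR 0.0295). It lost its call in 7 of 18 fits without 1 library, at most at an FDR of 0.0822 (without MM1R RSL3 passage 4). SCAP at -0.23 (FDR 0.0449) held its call in 4 of the 18 and reached 0.109. In the list of polyunsaturated fatty acid activation and remodelling (11 of 13 tested, median -0.08), AGPAT3, an acyltransferase of phospholipid synthesis, fell. It averaged 219.8 ± 1.17 and 166 ± 13.9 CPM in MM1R and 224 ± 9.75 and 168 ± 24.04 CPM in MM1S cells, a log2 fold change of -0.41 (SE 0.08, FDR 0.00191). The averaged call held in all 18 fits without 1 library. AGPAT3 was called in each line too, in MM1S cells not without the RSL3 library of passage 16 (FDR 0.186).

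The lipid oxidation list had 7 of 14 genes tested (median 0.06), and 2 rose. CYB5R1, a reductase that can feed lipid peroxidation, averaged 82.0 ± 6.20 and 104.5 ± 5.08 CPM in MM1R and 77.7 ± 6.54 and 104.1 ± 8.37 CPM in MM1S cells, a log2 fold change of 0.39 (SE 0.07, FDR 0.00167). PTGS2, the cyclooxygenase used as a transcript marker of ferroptosis, was at most 0.784 CPM in untreated cells. With RSL3 it stood at 2.15, 0.217 and 3.87 CPM in MM1R and at 50.1, 1.39 and 0.640 CPM in MM1S cells, so 1 library held most of it. Its averaged log2 fold change of 4.26 (FDR 0.00994) became 2.22 (FDR 0.0366) without that MM1S library of passage 16. With Fer-1 and RSL3 it stood at 0.273 to 1.15 CPM in all 6 libraries, and the difference from RSL3 alone was not called in either line. In the list of tetrahydrobiopterin and pyrimidine synthesis (8 of 9 tested, median 0.11), PTS, the second enzyme of tetrahydrobiopterin synthesis, rose at 0.34 (SE 0.11, FDR 0.0435), and its call held in 4 of 18 fits without 1 library, with an FDR of up to 0.109.

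**Figure D4:**
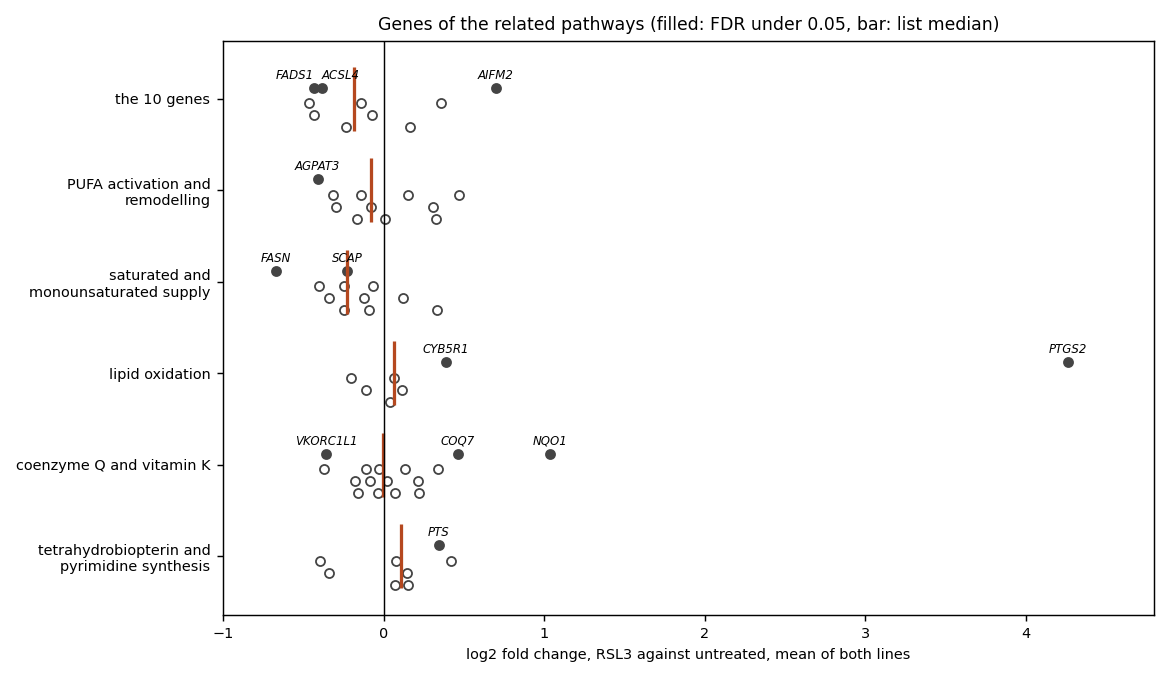
Log2 fold change with RSL3, averaged over the lines, for the 10 genes and the tested genes of the 5 lists. Filled points have an FDR under 0.05 and are named, and the vertical bar is the median of the list. NQO1 at 1.04 and PTGS2 at 4.26 rose most, and FASN at -0.67 fell most.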

How the data were processed

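The authors sequenced RNA in paired reads on a BGISEQ-500, checked reads with FastQC 0.11.5 and aligned them to hg19 with STAR 2.7.3a. The counting tool, annotation and use of strand are not given in the sources used here. The authors deposited raw counts per gene, used here for all main results, and a table of normalized signal values, which are counts divided by a size factor per library (0.834 to 1.08) and served as an alternative.

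Genes were filtered with filterByExpr (minimum count 10), scaled by TMM (0.864 to 1.06) and fitted with edgeR 4.0.16 (R 4.3.3) as 6 group means over all 18 libraries, with 12 residual degrees of freedom, by the quasi-likelihood test with Benjamini-Hochberg adjustment. Alternatives used DESeq2 1.42.0, limma 3.58.1 (pseudocount 1), other scalings and filters, only the groups compared, and each library left out. The replicates are passages per the labels, and deviations of libraries of 1 passage from their group means correlated at a median of 0.250 in MM1R (0.0338 to 0.516, 9 pairs) and 0.416 in MM1S (0.216 to 0.681, 9 pairs), so passage within line was a block in a further fit with 8 residual degrees of freedom. Replicates differed by more than counting noise (chi-square per degree of freedom 8.27 to 172 over 18 pairs).

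The members and lists were chosen with earlier results of these data known. All 10 members are named, and from each list up to 4 genes with an FDR under 0.05 with RSL3, by smallest averaged FDR. GPX4 and NR3C1 are named for context. Positions are from GENCODE on hg19, and promoter windows from RefSeq. The steps were tested on simulated data.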

Additional observations from a re-analysis of the deposited data

Results flagged for a closer look

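AIFM2 is listed because every passage of MM1R moved one way with Fer-1 and every passage of MM1S the other. The log2 ratio of Fer-1 with RSL3 to RSL3 alone was 0.15 to 0.26 in the 3 passages of MM1R and -0.09 to -0.04 in the 3 passages of MM1S cells. The difference between the lines was 0.25 on the log2 scale (SE 0.27) and was not called by edgeR's quasi-likelihood test (FDR 1.00), in a comparison added after the data had been seen. With the passage block it was 0.26 (SE 0.11, 95% confidence interval 0.02 to 0.49), with an unadjusted p of 0.0330 in the same test and an FDR of 1.00. Without the MM1R library at passage 6 that stood apart it was 0.25 without the block and 0.26 with it (95% confidence interval -0.01 to 0.53, unadjusted p of 0.0574 in that test).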

How the results depend on the processing

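No called gene changed direction under any alternative tried. For genes called in a comparison, 237 alternative values stayed past the FDR threshold and 47 did not. The number of the 10 genes called moved as follows, where a count within 1.5 times the main one is treated as unchanged. Requiring also a log2 fold change over 1 left 0 genes in each comparison. With the replicate block by passage, 4 genes were called for RSL3 against untreated in MM1R, 4 in MM1S and 6 on average, and 4 and 5 for Fer-1 with RSL3 against untreated in MM1R and MM1S. The block changed no other call of the 10 genes. It could not be used between the lines, which share no passage. With no filter on low counts, 1 gene was called for RSL3 in MM1R (AIFM2), 3 in MM1S, 5 on average, 4 for Fer-1 with RSL3 against untreated in MM1S and 2 between the lines under RSL3. With only the groups compared in the fit, 0 genes were called for RSL3 in MM1S and 1 for Fer-1 with RSL3 against untreated in MM1R, where limma on the authors' values also gave 1. For Fer-1 with RSL3 against untreated in MM1S, that fit, limma and DESeq2 each called 3 in place of 2. The shares of all genes called with the block are given above. For the other settings named here the share of all genes was not computed, so a general shift cannot be told apart from one of the 10 genes. Chosen after seeing the data, the replicate block without the MM1S RSL3 library of passage 16 called 7, 3 and 5 genes for RSL3 in MM1R, MM1S and on average, and without that library or the MM1R Fer-1 library of passage 6 it called 4 and 5 for Fer-1 with RSL3 against untreated in MM1R and MM1S.

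Leaving out 1 library at a time gave 0 to 2 genes for RSL3 in MM1S, 2 to 4 on average, 0 to 2 for Fer-1 with RSL3 against untreated in MM1R and 1 to 3 in MM1S, 1 gene between the lines in either state, and 0 genes for RSL3 in MM1R, for Fer-1 with RSL3 against RSL3 and for the difference between the lines. RLE or upper-quartile scaling shifted the median of all genes by at most 0.0333 (log2). Depth sets the precision least for SCD, with up to 37964 counts, and most for FADS2, with as few as 107. The causes of these shifts were not tested.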

Other observations

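Besides FADS1, 9 of the 53 tested genes of the lists were called between the untreated lines by edgeR's quasi-likelihood test, 5 higher and 4 lower in MM1R cells, which is 17.0% of them against 10.5% of all genes. SCD5, a second stearoyl-CoA desaturase, was lower in MM1R than in MM1S cells by a log2 difference of -0.87 (SE 0.16, FDR 0.00250), and the membrane-bound acyltransferases MBOAT2 and MBOAT1 were lower by -0.84 (FDR 0.00189) and -0.53 (FDR 0.00804). The fatty acid elongase ELOVL6 was higher in MM1R cells by 0.66 (FDR 0.0369), as was LPCAT2, an acyltransferase of lysophospholipids, by 1.73 (FDR 0.00339). FAR1, a reductase of ether lipid synthesis, was lower by -0.47 (FDR 0.0238), and PCBD1, which recycles tetrahydrobiopterin, was higher by 0.80 (FDR 0.0167), as were VKORC1, which reduces vitamin K, by 0.39 (FDR 0.0378) and CYBB, an NADPH oxidase subunit, by 1.16 (FDR 0.0473). Under RSL3, 8 of the 53 genes were called, 3 higher and 5 lower in MM1R cells, which is 15.1% of them against 9.17% of all genes. The differences of SCD5, MBOAT2, MBOAT1, ELOVL6 and LPCAT2 were called again, at -0.83, -0.55, -0.40, 0.73 and 1.19. CYBB was called again too, at 19.1 ± 5.12 CPM in MM1R against 7.50 ± 2.17 CPM in MM1S cells. ACSL1 was called lower, at 13.1 ± 1.59 CPM in MM1R against 23.8 ± 7.31 CPM in MM1S cells. NQO1 under RSL3 was lower in MM1R cells by -0.93 (FDR 0.0229). These genes were picked from the lists by their calls.

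SPR, the last enzyme of tetrahydrobiopterin synthesis, was higher with Fer-1 and RSL3 than in untreated cells, by 1.04 (FDR 0.0300) in MM1R and 1.19 (FDR 0.0216) in MM1S cells. Its level was 13.2 ± 5.66 CPM in untreated and 27.03 ± 9.57 CPM in Fer-1 and RSL3-treated MM1R cells, and 15.1 ± 2.62 and 34.5 ± 3.11 CPM in MM1S cells. Against RSL3 alone it was higher by 0.87 (FDR 0.618) and 0.52 (FDR 0.875), which did not pass the threshold. Without the MM1R library at passage 6 that stood apart, the log2 difference from untreated MM1R cells was 0.73 and was not called (FDR 0.163, with the passage block 0.0186). With the block SPR was called against RSL3 alone on average, at 0.70 (FDR 0.0267), and without that library it was at 0.54 (FDR 0.0534).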
